A study of Bos taurus with 24 samples.

Results

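miR-205, miR-203, miR-31, miR-184 and miR-375 are miRNAs of epithelial cells outside the miR-200 and miR-183 families. They were taken by name from the deposited tables of mammary gland (MG) miRNomes. Of the 5 names, 4 were listed in both tables, bta-miR-205, bta-miR-31, bta-miR-184 and bta-miR-375, among 796 miRNAs in all. bta-miR-203 was not analysed here. The listed miRNAs together held between 0.270% and 0.783% of the counts of a library.

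MG biopsies were taken from multiparous midlactation cows of the Holstein (HOLS) and Montbéliarde (MONT) breeds, once before (CONT, day 0) and once at the end (REST, day 6) of feed restriction. The labels give the restriction as 6 days at 60% of the net energy of lactation, and the methods of the study give another level. Small RNA libraries of 5 HOLS and 6 MONT cows were analysed, 1 library per cow and period, and 1 further HOLS cow of the labels was not analysed here. A biopsy holds milk-secreting epithelium, myoepithelium, stroma, vessels and blood cells, and the biopsies of a cow were taken from alternating sides of the rear udder.

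A miRNA is loaded into an Argonaute protein and pairs through its seed with mRNAs, which are then translated less or degraded. The mammary epithelium has an inner luminal layer, which secretes milk, and an outer basal layer of contractile myoepithelial cells. miR-205 is a miRNA of basal and progenitor epithelium and a repressor of the ZEB factors that drive epithelial cells towards a mesenchymal state. miR-31 is abundant in skin and in mammary epithelium, where it acts on Wnt signalling. miR-375 was first known from pancreatic islets, where it restrains insulin secretion, and is high in luminal and other secretory epithelia. miR-184 is best known from the epithelia of the eye.

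Total counts ranged from 7431936 to 18149037 in HOLS libraries and from 6087865 to 18913916 in MONT libraries. Levels are given as normalized counts, the counts divided by a size factor estimated over all 22 libraries, and were not divided by length, since mature miRNAs are of nearly equal length. The epithelial character of the biopsies was checked on 8 other epithelial miRNAs of the miR-200 and miR-183 families, which were all listed and at 0 in no group. Their summed level ranged from 135861 to 648382 normalized counts. Markers of nerve were near 0 (0 to 31.2 normalized counts in sum, with bta-miR-9-5p not listed). MONT cow 9615 stood apart. Its libraries deviated from their period means in opposite directions (r = -0.33 across 349 miRNAs), whereas r ranged from 0.07 to 0.76 in the other 10 cows. Log2 fold changes of bta-miR-31 and bta-miR-375 in the edgeR fits that moved by over 1.5 times without this cow are given both ways. Ratios and correlations are not all given without it.

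bta-miR-205 and bta-miR-375 were the most abundant of the set, bta-miR-31 lay a median of 10.1-fold below bta-miR-205, and bta-miR-184 was close to the limit of detection in several cows. Over all 22 libraries the mean level was 25752 ± 6752 normalized counts (SD, n = 22) for bta-miR-205, 20776 ± 11061 for bta-miR-375, 2618 ± 1332 for bta-miR-31 and 45.4 ± 71.4 for bta-miR-184. bta-miR-205 ranked between 29 and 47 among all miRNAs of a library, bta-miR-375 between 27 and 90, bta-miR-31 between 72 and 112 and bta-miR-184 between 159 and 591. bta-miR-205 exceeded bta-miR-31 in 22 of 22 libraries, with ratios from 4.14 to 20.6. The order of bta-miR-205 and bta-miR-375 was not fixed, since bta-miR-205 was the higher in 4 of 10 HOLS libraries and in 10 of 12 MONT libraries.

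**Figure D1:**
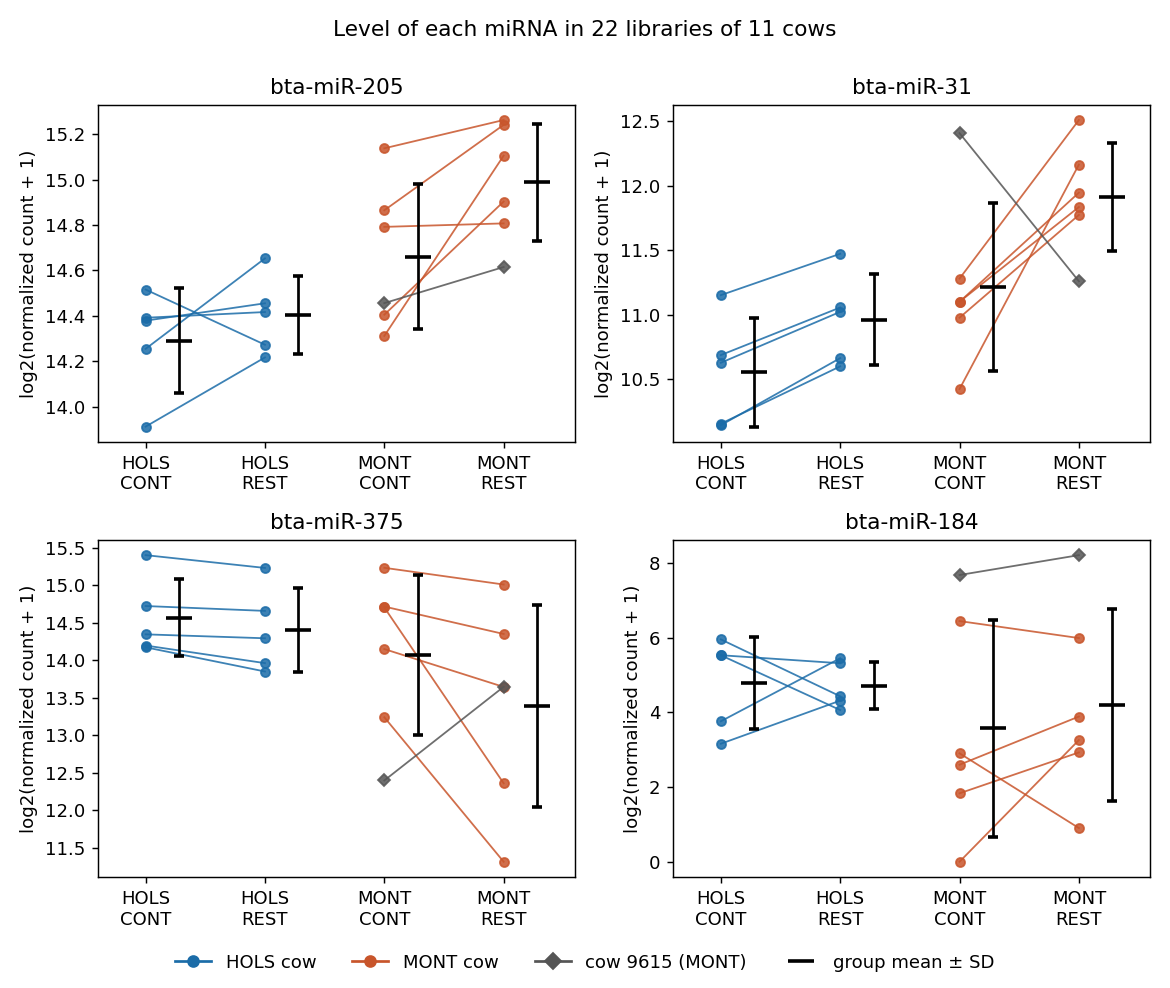
Level of each miRNA as log2(normalized count + 1) by breed and period, with a line joining both libraries of a cow and a bar for the mean of the log2 values ± SD (n = 5 HOLS and 6 MONT cows). bta-miR-205 and bta-miR-31 lay higher in MONT REST than in HOLS REST with some overlap, bta-miR-375 spread widely in MONT, and cow 9615 (grey diamonds) moved against the other MONT cows for bta-miR-31 and bta-miR-375.

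bta-miR-205, the miRNA of the basal layer, was the steadiest of the set. In HOLS CONT the 5 cows had 21300.1, 15409.8, 19542.5, 23423 and 21491 normalized counts (cows 1155, 1165, 2182, 8200 and 9195). In HOLS REST the same cows had 22460.4, 19037, 25762, 19789.7 and 21868. In MONT the lowest, median and highest values were 20329, 25418 and 36057 in CONT and 25091, 32949.8 and 39312 in REST. The periods overlapped in both breeds for each of the 4 miRNAs, whereas 7.22% of the miRNAs tested in HOLS and 0.287% of those in MONT showed no overlap. Mean levels rose in order from HOLS CONT (20233 ± 3026) over HOLS REST (21783 ± 2637) and MONT CONT (26459 ± 6056) to MONT REST (32951 ± 5739), and neighbours in this order overlapped. Within groups its log2 level had a pooled SD of 0.26, against a median of 0.37 over 279 miRNAs with at least 10 counts in every library.

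bta-miR-31, a regulator of Wnt signalling in mammary epithelium, had 1646, 1579, 1129, 1138 and 2272 normalized counts in the HOLS cows in CONT, in the same order. In REST these cows had 2126, 2077, 1619, 1549 and 2838 normalized counts. Each HOLS cow was higher after restriction, although the groups overlapped because the cows differed more among themselves. In MONT the lowest, median and highest values were 1371, 2192 and 5428 normalized counts in CONT and 2448, 3796 and 5825 in REST. Cow 9615 had both the highest CONT value and the lowest REST value of MONT. Mean levels had the same order as those of bta-miR-205, and neighbours again overlapped. They were 1553 ± 469 before and 2042 ± 516 after restriction in HOLS, and 2613 ± 1428 and 3991 ± 1137 in MONT. The MONT CONT mean includes the 5428 of cow 9615. The other cows of that group lay between 1371 and 2484, against 1549 to 2838 in HOLS REST.

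bta-miR-375, the miRNA of secretory epithelium, had 27100.1, 18809, 43388, 20855.5 and 18503 normalized counts in HOLS CONT. After restriction these cows had 25908, 15982, 38543, 20113 and 14791 normalized counts. Each HOLS cow was lower, by little, and cow 2182 was the highest in both periods. In MONT the lowest, median and highest values were 5398, 22476 and 38595 in CONT and 2546, 12833 and 33065 in REST, so the groups overlapped over most of their range. Among the MONT cows, 1652 had 9691 before and 2546 after restriction, 2614 had 26748 and 5262, and 9615 had 5398 and 12839. The pooled SD of its log2 level was 0.97, and 1 of the 279 miRNAs had a larger one.

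bta-miR-184, known from the epithelia of the eye, was detected in all but 1 of the 22 libraries, at low counts. The HOLS cows had 45.2, 12.6, 61.0, 45.2 and 7.94 normalized counts in CONT and 38.8, 42.7, 20.6, 15.7 and 18.9 in REST, from 12 to 62 counts per library. In MONT, cow 9615 had 204 in CONT and 295 in REST and cow 5663 had 86.1 and 62.5, whereas the other 4 cows lay between 0 and 13.8. The count of 0 was in the CONT library of cow 1652, which allows a level of up to 2.74 normalized counts (3 counts, counting error only). The MONT groups therefore mixed cows of high and of very low level, with means of 50.6 ± 82.0 in CONT and 64.6 ± 115 in REST.

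The first question was whether feed restriction changed these miRNAs within a breed. None of the 4 tested in HOLS passed the threshold of edgeR's quasi-likelihood test (adjusted p of at most 0.05), where 9 of 374 miRNAs did (2.41%), all of them lower in REST. bta-miR-31 had a log2 fold change of 0.38 (SE 0.22, 95% interval -0.10 to 0.86, edgeR adjusted p = 0.307). bta-miR-205 had 0.10 (SE 0.14, adjusted p = 0.719), and -0.06 with library size only, a scaling that moved the median of all miRNAs by -0.17. bta-miR-375 had -0.14 (SE 0.29, adjusted p = 0.845) and bta-miR-184 had -0.31 (SE 0.48, adjusted p = 0.762). In a bulk biopsy a change in the number of cells of a type and a change in the RNA per cell cannot be told apart.

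For bta-miR-31 the call in HOLS changed once each cow was compared with itself. It was higher in REST in 5 of 5 cows, by a mean of 0.41 ± 0.08 (SD, n = 5) on the log2(normalized count + 1) scale and between 0.32 and 0.52 in single cows. With the cow as a block, edgeR gave a log2 fold change of 0.40 (SE 0.09, adjusted p = 0.0139), and bta-miR-31 was the only one of the 4 among the 61 miRNAs past the threshold (16.3% of 374). Leaving out each cow in turn kept this blocked call, with adjusted p from 0.0281 to 0.0467. The size of the rise depended on the scaling. bta-miR-31 held 0.0152% of all counts in CONT and 0.0158% in REST in cow 1165, and 0.0168% and 0.0170% in 1155. Its share was 0.0204% and 0.0220% in 9195, 0.00958% and 0.0136% in 8200, and 0.0107% and 0.0148% in 2182. With library size only, its log2 fold change without the block was 0.19 (edgeR adjusted p = 0.608). The blocked fit was not run with that scaling. bta-miR-375 was lower in 5 of 5 HOLS cows, with a mean change of -0.17 ± 0.11, and did not pass with the block (adjusted p = 0.166). bta-miR-205 was higher in 4 of 5 cows, with a mean change of 0.11 ± 0.25. Of the lists of cell type markers, smooth muscle and stroma had 6 of 6 miRNAs and endothelium 2 of 2 with a higher level in HOLS REST, none past the threshold without the block. Leukocytes had 5 of 6 miRNAs higher, none of them called, and their summed level was higher in REST in 5 of 5 cows (24808 to 40210 normalized counts in CONT and 26004 to 62945 in REST). Of the 8 other epithelial miRNAs, 2 were higher in HOLS REST and none was called. The lowest were bta-miR-200b (-0.55, edgeR adjusted p = 0.0540) and bta-miR-200c (-0.42, adjusted p = 0.0711), which were called lower with library size only. bta-miR-141, the most abundant of the list, had 0.06 (adjusted p = 0.923). The summed epithelial level was higher in REST in 3 of 5 cows. The summed stromal level was 1665528 to 2542958 in HOLS CONT and 2480589 to 3176473 in HOLS REST, and the part of stroma and leukocytes in the difference of bta-miR-31 was not tested.

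In MONT none of the 3 tested miRNAs passed the threshold, as was the case for all 349 miRNAs (0%), while 47 of them (13.5%) had an unadjusted p under 0.05 and 0 passed with DESeq2. bta-miR-31 had a log2 fold change of 0.62 (SE 0.28, 95% interval 0.02 to 1.22, edgeR adjusted p = 0.355). bta-miR-205 had 0.30 (SE 0.18, adjusted p = 0.437) and was higher in REST in 6 of 6 cows, by 0.02 to 0.79 on the log2 scale. bta-miR-375 had -0.57 (SE 0.56, 95% interval -1.78 to 0.64, adjusted p = 0.591) and was lower in 5 of 6 cows. bta-miR-184 did not pass the filter on low counts and had 0.34 (SE 1.17, adjusted p = 0.927) in a fit without that filter.

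The MONT value of bta-miR-31 depended on cow 9615 and that of bta-miR-375 on cow 2614. Without cow 9615, 46 of 358 miRNAs passed the threshold in MONT, and bta-miR-31 was 1 of them with a log2 fold change of 1.04 (adjusted p = 0.0149). With the cow as a block and without cow 9615, bta-miR-31 had 1.03 (adjusted p = 0.00126) and bta-miR-375 had -1.10 (adjusted p = 0.0140), whereas bta-miR-205 did not pass in any of these fits (0.31 without cow 9615). How many of all miRNAs passed in the blocked fit without cow 9615 was not recorded. Without cow 2614, bta-miR-375 had -0.25 (adjusted p = 0.945), or -0.34 with the block (adjusted p = 0.750). Of the marker lists in MONT, 1 of 8 epithelial and 6 of 6 stromal miRNAs were higher in REST, none of them called. The epithelial sum was higher in REST in 1 of 6 cows (median log2 change -0.45). The sum of the lactating MG markers was also higher in 1 of 6 (median -0.79), and this was cow 9615 for both. Stromal sums were higher in 4 of 6 cows and leukocyte sums in 5 of 6. In cow 9615 the summed level of the 8 other epithelial miRNAs was 209771 in CONT and 380567 in REST, and the summed stromal level was 4206335 and 4135323. The leukocyte markers summed to 91443 in CONT and 51246 in REST, and the markers of lactating MG to 902269 and 2181951. The part of these markers in the values of this cow and of the other MONT cows was not tested.

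The change with restriction was then compared between breeds and averaged over them. The breed by period interaction called 0 of 388 miRNAs (0%), although 3 (0.773%) had an unadjusted p under 0.05, and 0 passed with DESeq2. For bta-miR-31 the change in MONT exceeded that in HOLS by 0.27 (95% interval -0.54 to 1.09, edgeR adjusted p = 0.991). For bta-miR-375 the difference of the changes was -0.33 (95% interval -1.80 to 1.14, adjusted p = 0.991). The intervals of both were wider than the changes themselves. Without cow 9615 the difference was 0.73 for bta-miR-31 (adjusted p = 0.480) and -0.51 for bta-miR-375 (adjusted p = 0.879), and without cow 2614 it was 0.08 and -0.13. Over both breeds edgeR called 35 of 388 miRNAs (9.02%, with 8 higher and 27 lower in REST, or 22.9% higher, against 2.86% to 41.2% under other scalings) and none of the 4. bta-miR-31 had a mean log2 fold change of 0.47 (SE 0.19, 95% interval 0.07 to 0.87, adjusted p = 0.119), or 0.54 with the cow as a block (adjusted p = 0.0672), where 56 miRNAs were called (14.4%) and again none of the 4. It passed with DESeq2 and the block (0.58, adjusted p = 0.0184) and, in edgeR without the block, without cow 9615 (0.72, adjusted p = 0.00537). That edgeR fit called 121 of 388 miRNAs. bta-miR-205 had 0.18 (SE 0.11, adjusted p = 0.266), bta-miR-375 had -0.39 (SE 0.35, adjusted p = 0.465) and bta-miR-184 had -0.01 (SE 0.75, adjusted p = 0.992). With the block and without cow 9615, bta-miR-375 had -0.61 (adjusted p = 0.0243), whereas without cow 2614 it had -0.22 (adjusted p = 0.740) and, with the block, -0.27. The number of all miRNAs called in these blocked fits was not recorded.

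**Figure D2:**
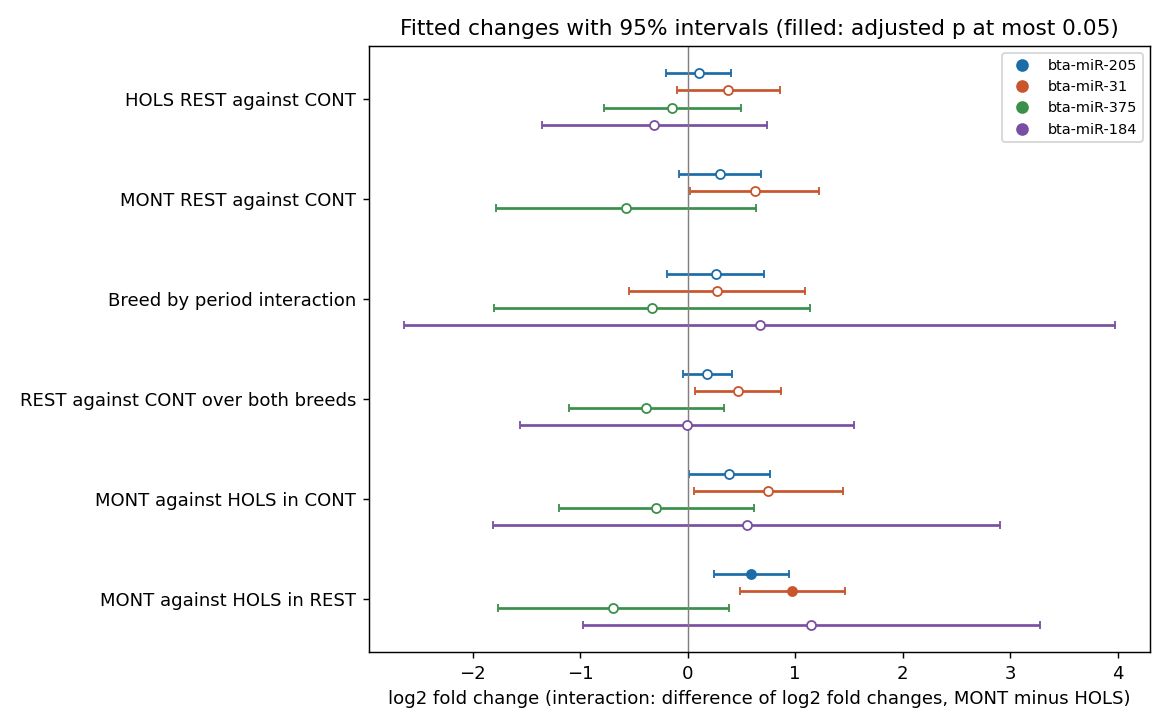
Log2 fold change of each miRNA from edgeR with its 95% interval in the 6 comparisons. The filled points are bta-miR-205 (0.59) and bta-miR-31 (0.97) in MONT against HOLS in REST, the only ones with an adjusted p of at most 0.05, and bta-miR-184 has the widest intervals and none for MONT REST against CONT.

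The second question was whether the breeds differed in the same period. The paper describes its MONT libraries as lower in quality than those of HOLS, with more reads that were too short or held adapters. This difference runs along breed, so the 2 cannot be told apart in the comparisons below. In REST, bta-miR-31 was 1.96-fold higher in MONT than in HOLS (log2 fold change 0.97, SE 0.23, 95% interval 0.48 to 1.46, edgeR adjusted p = 0.0148). bta-miR-205 was 1.51-fold higher (log2 fold change 0.59, SE 0.16, 95% interval 0.25 to 0.94, adjusted p = 0.0259). These were 2 of the 4 tested, beside 58 of 378 miRNAs called (15.3%, 37 higher and 21 lower in MONT, or 63.8% higher, against 75.9% with library size only). The levels of both still overlapped between the breeds in REST, with cow 9615 the lowest MONT cow for each, whereas 8.99% of the 378 miRNAs showed no overlap. bta-miR-375 had a log2 fold change of -0.69 (SE 0.50, adjusted p = 0.348) and bta-miR-184 of 1.15 (SE 0.99, adjusted p = 0.437), a direction that turned to -0.65 without cow 9615 and to -0.94 with limma-voom. Without cow 9615, bta-miR-31 had 1.10 and bta-miR-205 had 0.68. The call of bta-miR-31 held with each cow left out and in the other edgeR, DESeq2 and limma-voom fits run (adjusted p from 0.000957 to 0.0393), whereas that of bta-miR-205 was lost without HOLS cow 1165 (0.55, adjusted p = 0.0600). Exact permutation tests of the log2 levels gave p = 0.00649 for each of bta-miR-31 and bta-miR-205 (adjusted p = 0.0519 over 16 tests).

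In CONT none of the 4 passed the threshold, beside 2 of 360 miRNAs called (0.556%, or 20 with DESeq2), and none was free of overlap, beside 2.78% of the miRNAs tested. bta-miR-31 had a log2 fold change of 0.75 (SE 0.32, 95% interval 0.06 to 1.44, edgeR adjusted p = 0.225) and bta-miR-205 of 0.39 (SE 0.17, 95% interval 0.01 to 0.76, adjusted p = 0.236). bta-miR-375 had -0.29 (SE 0.42, adjusted p = 0.715) and bta-miR-184 had 0.55 (SE 1.09, adjusted p = 0.797). Without cow 9615, bta-miR-31 had 0.40 (adjusted p = 0.330), bta-miR-375 had -0.09 (adjusted p = 0.903) and bta-miR-184 had -0.97. Whether the breed difference itself changed between the periods is what the interaction tests, and no miRNA passed that test.

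Markers of other cell types differed between the breeds in REST as well. Of the 6 stromal miRNAs, bta-miR-199a-3p, bta-miR-199a-5p and bta-miR-214 were called higher in MONT, and the summed stromal level was 2355363 to 4864305 normalized counts in MONT REST against 2480589 to 3176473 in HOLS REST. Of the 8 other epithelial miRNAs, bta-miR-200c (log2 fold change -0.99, edgeR adjusted p = 0.0403) and bta-miR-141 (-1.06, adjusted p = 0.0452), both of the miR-200 family that also represses the ZEB factors, were called lower in MONT. Neither was called with DESeq2 size factors or with library sizes without bta-miR-143. The epithelial sum was 135861 to 380567 in MONT REST and 279361 to 648382 in HOLS REST. Of the leukocyte markers 1 of 6 was called higher and of the endothelial ones 1 of 2 lower. None of the 2 miRNAs of lactating MG, the 3 of red blood cells and the 2 tested of skeletal muscle passed. The 2 of lactating MG were lower in MONT, with log2 fold changes of -0.87 and -0.77 and an unadjusted edgeR p under 0.05 each. No nerve marker could be tested. The part of the cell mixture in the levels of bta-miR-205 and bta-miR-31 was not tested.

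Each miRNA was therefore also set against the summed counts of the 8 other epithelial miRNAs of the same library, a ratio that needs no scaling. Between the periods, 0 of 8 exact permutation tests passed after Benjamini-Hochberg adjustment over these tests, and 0 had an unadjusted p under 0.05. The log2 ratio of bta-miR-31 was 0.46 higher in HOLS REST than in CONT (exact permutation p = 0.167) and 1.03 higher in MONT REST (exact p = 0.123). The MONT difference was 1.64 without cow 9615. The level of the denominator was itself higher in REST in only 1 of 6 MONT cows (median log2 change -0.45), and its part in the MONT difference was not tested. The ratio of bta-miR-31 was higher in REST in 5 of 5 HOLS cows, for which a paired exact permutation test gave p = 0.0625, the smallest that 5 cows allow. That of bta-miR-375 differed by -0.12 in HOLS and -0.36 in MONT, less than the SD within the groups (0.60 to 1.02). Between the breeds the ratio is no independent evidence, since it was chosen after the values were seen and restates calls given above. bta-miR-141, itself called lower in MONT REST, held 56.2% to 83.7% of the summed counts. The log2 ratio of bta-miR-31 in REST was -7.82 ± 0.46 in HOLS (SD, n = 5) and -5.92 ± 1.03 in MONT (n = 6), a difference of 1.89. The breeds were free of overlap only narrowly, with -7.30 in HOLS cow 9195 and -7.28 in MONT cow 9615. The share of all miRNAs without overlap on this ratio was not computed. For bta-miR-205 in REST it was -4.37 ± 0.60 and -2.85 ± 0.86, a difference of 1.53 with overlap. In CONT the differences were 1.33 for bta-miR-31 and 1.03 for bta-miR-205. For bta-miR-375 the breeds differed by 0.17 in CONT and -0.07 in REST. With a cow left out these were -0.11 to 0.41 and -0.39 to 0.31, so neither direction was fixed. With a cow left out, the difference of bta-miR-31 in REST was between 1.62 and 2.17.

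**Figure D3:**
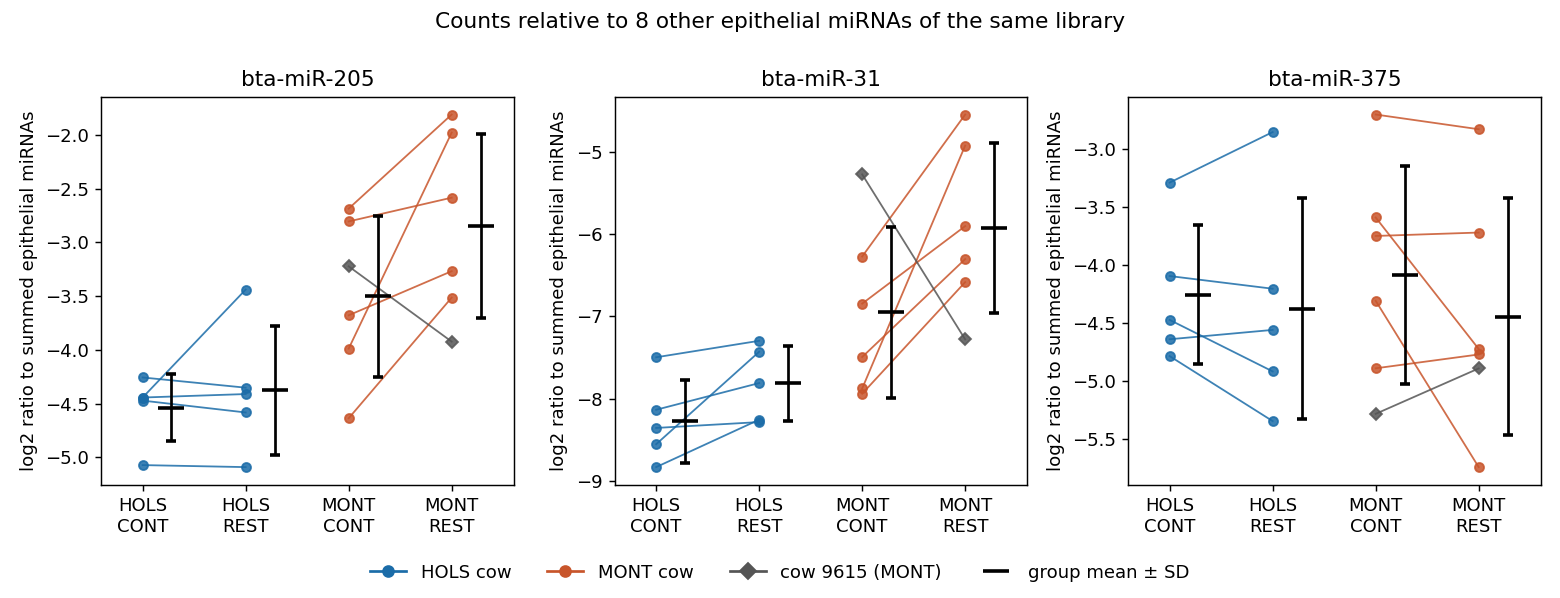
Log2 ratio of the count of bta-miR-205, bta-miR-31 and bta-miR-375 to the summed counts of 8 other epithelial miRNAs in the same library, by breed and period, with lines joining the libraries of a cow and bars for mean ± SD. MONT cows lay above HOLS cows for bta-miR-31 in REST (-5.92 against -7.82 on average), with the nearest cows almost touching (-7.28 and -7.30). For bta-miR-375 the breeds overlapped in both periods.

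The miRNAs of the set did not vary as a group. Levels were taken as deviations from the mean of their own breed and period and correlated over the 22 libraries, where both libraries of a cow share the cow and all values share the library's size factor, so r is given as a description. bta-miR-375 and bta-miR-31 varied in opposite directions (r = -0.66, rho = -0.65, and r = -0.44 without the libraries MONT REST 1652 and MONT CONT 9615). bta-miR-205 was close to unrelated to bta-miR-31 (r = 0.18, rho = 0.16) and to bta-miR-375 (r = 0.09, rho = 0.13). bta-miR-205 and bta-miR-184, at its low counts, had r = -0.48 (rho = -0.40, and r = -0.59 without the libraries MONT CONT 1640 and HOLS CONT 1165).

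**Figure D4:**
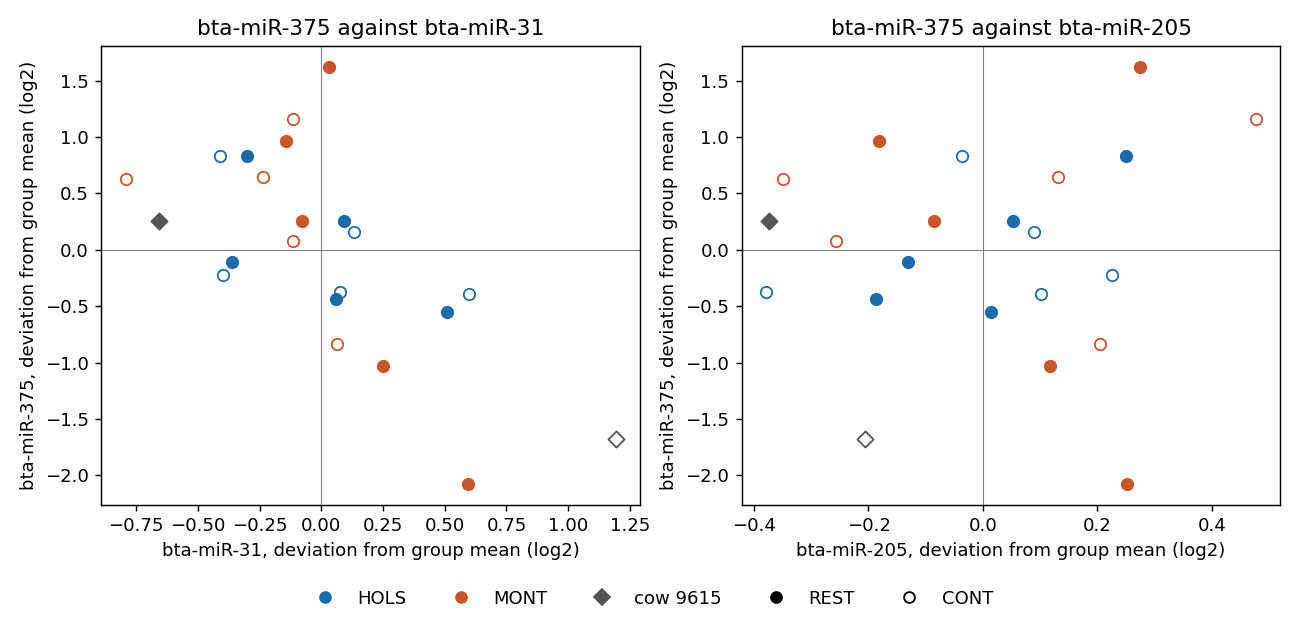
Deviation of bta-miR-375 from its group mean against that of bta-miR-31 (left) and bta-miR-205 (right), in log2 units, with 1 point per library (22 in all). The points fall from upper left to lower right for bta-miR-31 (r = -0.66), with a library of cow 9615 at the far right, and scatter without a direction for bta-miR-205 (r = 0.09).

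Among 278 candidates with at least 10 counts in every library, the miRNAs most like bta-miR-375 were bta-miR-429 (r = 0.86, rho = 0.77), a member of the miR-200 family, bta-miR-33b (r = 0.84, rho = 0.75) and bta-miR-148d (r = 0.84, rho = 0.77). Those most like bta-miR-31 were bta-miR-147 (r = 0.87, rho = 0.85), bta-miR-222 (r = 0.84, rho = 0.79) and bta-miR-125b (r = 0.82, rho = 0.65). For bta-miR-205 the likeness was weaker, with bta-miR-497 (r = 0.66, rho = 0.64), bta-miR-339a (r = 0.65, rho = 0.71) and bta-miR-93 (r = 0.61, rho = 0.60) at the top. Without the 2 libraries farthest from the median, r fell to between 0.69 and 0.73 for the 3 nearest to bta-miR-375 and to between 0.67 and 0.81 for those of bta-miR-31. For those of bta-miR-205 it was between 0.62 and 0.67. bta-miR-184 had fewer than 10 counts in some libraries and was not matched.

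No member had a second arm or a copy with a similar name in the tables, and none shared its counts with another miRNA in all libraries. In the RefSeq annotation of ARS-UCD2.0, an assembly other than the one used by the authors, 4 of the 5 miRNAs had an entry. MIR205 lies between CAMK1G, a calcium-dependent kinase, and the lncRNA LOC104974529. MIR31 lies within the span of IFNE, an epithelial interferon. MIR184 lies within the lncRNA LOC112443131, and MIR375 lies between CRYBA2, a crystallin, and CFAP65.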

How the data were processed

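Small RNA was sequenced from MG biopsies (TruSeq small RNA kit, which ligates adapters to both ends) of 5 HOLS and 6 MONT cows in both periods. The authors removed adapters, filtered reads by size, quantified them with ncPRO-seq and aligned them with miRDeep2 to btau5.0.1 and miRBase. The submitters' processing notes name bcl2fastq 2.17.1.14 and DESeq2 1.18.1. The deposited counts are whole reads per mature miRNA, and PCR duplicates cannot be told from separate molecules. The normalized counts deposited by the authors, a signal per library, were scaled within each breed and were not used for levels. The deposited log2 fold change of the authors and their p-value were not used.

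Normalized counts were recomputed with DESeq2 1.42.0 size factors over all libraries. Counts were tested with edgeR 4.0.16 in R 4.3.3 (TMM, filterByExpr with a minimum count of 10, quasi-likelihood F test, Benjamini-Hochberg adjustment over all miRNAs tested, threshold 0.05). SE and 95% intervals come from these fits. Comparisons were REST against CONT within each breed, the breed by period interaction, REST against CONT over both breeds, and MONT against HOLS within each period. The ratio to 8 epithelial miRNAs used log2(count + 0.5) and two-sided exact permutation tests. A self-test on simulated counts with log2 changes of 1 recovered, of the changed miRNAs kept by the filter, 91.3% (HOLS), 66.3% (MONT), 39.1% (interaction), 89% (both breeds), 69.1% (breeds in CONT) and 70.7% (breeds in REST).

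The titles give a cow number, which pairs the libraries of that cow. Their deviations from the period means correlated with r of 0.25 to 0.54 in HOLS and, in MONT, with 0.58, 0.45, 0.76, 0.64 and 0.07, and -0.33 in cow 9615. The study names no block, so the cow was a replicate block in an alternative fit only, which gave bta-miR-31 a log2 fold change of 0.40 in HOLS. Depth was 6087865 to 18913916 counts per library. The 95% intervals rest on the spread between cows, and the floor of 3 counts covers counting error only.

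The members and the lists of cell type markers (epithelium, lactating MG, smooth muscle and stroma, endothelium, leukocytes, red blood cells, skeletal muscle and nerve) were chosen with earlier results of these data known. Named miRNAs are the members, the 8 epithelial miRNAs, and the 3 with the highest r to each member among miRNAs with at least 10 counts in every library. Stromal miRNAs that were called are also named, a choice made after their values were seen. Alternatives were DESeq2, limma-voom (limma 3.58.1), the replicate block, other scalings, no filter, other denominators of the ratio and each cow left out. Of the 24 samples in the labels, 2 of 1 HOLS cow were not analysed here.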

Additional observations from a re-analysis of the deposited data

Results flagged for a closer look

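In 2 of 16 groups of libraries (4 miRNAs in 4 groups) 1 library lay far from the others. The rule compared the gap to the next library with the range (Dixon's ratio), on normalized counts and not on the log2 scale. Its rate of about 1 in 20 groups, or 0.8 here, holds for normally distributed values. Levels on this scale can be skewed, so the 2 groups say nothing about an excess over chance. Both libraries came from MONT cow 9615. bta-miR-31 had 5428 normalized counts in its CONT library, whereas the other 5 MONT CONT libraries lay between 1371 and 2484. bta-miR-184 had 295 normalized counts in its REST library, whereas the other 5 lay between 0.869 and 62.5.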

How the results depend on the processing

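Of 688 values of single miRNAs under the alternatives, 617 kept direction and side of the threshold, 42 reversed (31 of them bta-miR-184), 18 newly passed the threshold and 11 no longer did. Values printed here are log2 fold changes or counts of calls, and the causes of the changes were not tested. DESeq2 with the replicate block, the blocked fits with a cow left out and the ratio by breed were chosen after seeing the data.

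In HOLS the 9 calls became 26 with DESeq2, 17 with limma-voom, 61 with the cow as a replicate block, 70 with DESeq2 and the block, 20 with library size only, 15 with library sizes without bta-miR-143, 5 without a filter, and 3 to 14 with a cow left out. Calls among the 4 miRNAs went from 0 to 1 with either block and stayed at 0 with a cow left out. Over both breeds the 35 calls became 55 with DESeq2, 56 with the block, 109 with DESeq2 and the block, 13 without a filter, and 11 (without cow 1155) to 121 (without cow 9615), and those among the 4 went from 0 to 1 with DESeq2 and the block and were 0 to 1 with a cow left out. With all cows, the block changed no other call among the 4. Without cow 9615 it also changed that of bta-miR-375, in MONT (edgeR adjusted p = 0.358 without and 0.0140 with the block) and over both breeds (0.321 and 0.0243). In MONT, leaving out a cow gave 0 to 46 calls and 0 to 1 among the members. For the breeds in CONT the 2 calls became 20 with DESeq2, 1 with library size only, 0 with library sizes without bta-miR-143 and 0 to 6 with a cow left out. In REST, 58 became 38 (without cow 1165) to 77, and those among the members 1 to 2.

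bta-miR-205 in HOLS was -0.061 with library size only and -0.0057 (without cow 2182) to 0.18 with a cow left out. bta-miR-184 in HOLS was -0.74 to 0.031 with a cow left out, and 0.10 and 0.088 with the block and without cow 2182 or 8200. Over both breeds it was 0.040 with DESeq2, 0.22 with limma-voom, 0.079 with the block, 0.25 with DESeq2 and the block, 0.025 with DESeq2 size factors, 0.043 with library sizes without bta-miR-143 and -0.21 to 0.20 with a cow left out. With the block and without cow 1155, 1613, 1640, 2182, 2614, 5663 or 8200 it was 0.17, 0.038, 0.21, 0.33, 0.041, 0.17 and 0.33. Between the breeds it was -1.52 (CONT) and -0.94 (REST) with limma-voom, and -0.97 to 0.82 and -0.65 to 1.44 with a cow left out, the lowest of each without cow 9615.

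For the ratios, bta-miR-200c alone as denominator gave 0.35 for bta-miR-184 and 0.25 for bta-miR-375 in HOLS, 0.14 for bta-miR-375 in MONT and 0.13 for bta-miR-375 between the breeds in REST, where a denominator without bta-miR-182, bta-miR-183 and bta-miR-96 gave 0.065. With a cow left out, the HOLS ratios were -0.37 to 0.32 for bta-miR-184 and -0.048 to 0.23 for bta-miR-205. Between the breeds they were -1.73 to 0.010 (CONT) and -0.37 to 1.06 (REST) for bta-miR-184 and -0.11 to 0.41 (CONT) and -0.39 to 0.31 (REST) for bta-miR-375. The 1 exact test by breed that passed was bta-miR-31 in REST (adjusted permutation p = 0.0346 over 8 tests). This call was lost in 10 of 13 alternatives (adjusted permutation p up to 0.114). The number of tests that passed was 2 with bta-miR-200c alone and 0 to 4 with a cow left out.

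Low counts limit bta-miR-184, whose fits rest on 0 to 165 counts per library.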

Other observations

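Whether a cow with a high level before restriction also had a high level after it was examined over the 11 cows, on deviations from the breed and period means, after the values had been seen. For bta-miR-375 r was 0.52 (permutation p = 0.209, rho = 0.65, permutation p = 0.0612) and 0.69 without cows 9615 and 1640. For bta-miR-205 r was 0.44 (permutation p = 0.224, rho = 0.41, permutation p = 0.248) and 0.54 without cows 1165 and 2614. For bta-miR-31 r was -0.16 (permutation p = 0.670, rho = 0.15, permutation p = 0.670) and 0.28 without cows 9615 and 9195. For bta-miR-184 r was 0.72 (permutation p = 0.0687, rho = 0.67, permutation p = 0.0605) and 0.22 without cows 9615 and 5663, so that relation rested on these cows. None of the 4 relations passed after Benjamini-Hochberg adjustment over them (adjusted permutation p from 0.275 to 0.670). The median r of 279 miRNAs was 0.33. Within the 6 MONT cows r was 0.52 for bta-miR-205, -0.66 for bta-miR-31, 0.80 for bta-miR-184 and 0.44 for bta-miR-375 (exact permutation p = 0.275, 0.135, 0.0569 and 0.385), and no correlation was computed within the 5 HOLS cows.

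The balance of bta-miR-205 to bta-miR-375, a miRNA of the basal layer over one of secretory epithelium, ranged from 0.450 to 1.48 in the 10 HOLS libraries (median 0.925) and from 0.760 to 15.2 in the 12 MONT libraries (median 1.66). The highest ratios were 15.2 in cow 1652 and 6.70 in cow 2614, both in REST.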
